A study of Mus musculus with 16 samples.

Results

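The solute carriers are the genes of the deposited table whose symbol begins with Slc or Slco followed by a number. The rule took 83 gene IDs with 82 symbols out of 4943, and 119 of 7069 distinct peaks, from 33 families. Members are counted by gene ID, and 1 symbol has 2 IDs with the same values. A pair of the genes carry such a symbol without being carriers: *Slc9a3r1* encodes the scaffold protein NHERF1, and *Slc7a6os* is named for lying opposite *Slc7a6*. One peak was found for 59 of the genes, 2 for 18 and 3 for 5, and *Slco3a1* had 10. A carrier is in the table only if a peak was called on its transcript. *Slc40a1*, *Slc7a7*, *Slc2a3*, *Slc16a1*, *Slc31a1*, *Slc28a2*, *Slc48a1* and *Slco2b1*, all of known roles in macrophages, have none here, which says nothing of their level.

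Thioglycolate-elicited peritoneal macrophages (PMs) came from C57BL/6 wild-type (WT) mice and from Adap-/- mice, which lack the immune adaptor protein ADAP in all cells and not in macrophages alone. The mice were littermates of the same sex, 6 to 8 weeks old. PMs were mock-treated or stimulated with 1 µg/ml lipopolysaccharide (LPS) for 6 h, giving the groups WT mock, WT LPS, Adap-/- mock and Adap-/- LPS. Each of these groups has 2 replicates with a library of both types, IP and input. MeRIP-seq captures RNA fragments with an antibody to N6-methyladenosine (m6A) for the IP library, while the input library holds fragments of the same RNA without capture. Input reads over a gene's peaks served as its transcript level, and the ratio of IP to input reads on a peak (the IP-to-input ratio) as the m6A signal. The comparisons ask how LPS and the loss of ADAP change carrier transcripts and their m6A signal. No source says whether replicates came from separate mice, so p-values measure only the spread between these samples, which may be technical.

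Solute carriers move nutrients, ions and metabolites across the plasma membrane and the membranes of organelles, mostly by following gradients or by exchanging one solute for another. In macrophages they set the supply of arginine for nitric oxide synthesis, of cystine for glutathione and of hexoses for glycolysis, and they withhold or recycle iron, zinc and copper. Activation by LPS is known to switch macrophages to glycolysis and to raise arginine uptake.

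Total counts lay between 2121313 and 4325961 in the 8 input libraries and between 5728590 and 19030373 in the IP libraries. The members held 1.38% to 1.65% of the input reads and 1.53% to 1.66% of the IP reads. *Fyb1*, which encodes ADAP, was at 244 and 257 normalised CPM (reads scaled to the library total with TMM factors) in WT mock and 349 and 377 in WT LPS input, against 46.7 and 36.9 in Adap-/- mock and 41.5 and 35.7 in Adap-/- LPS. These levels follow the genotype labels. Of 8 macrophage markers 7 were in the table, with a summed level of 8721 to 10606 CPM over all input libraries. Most of this sum came from *Cd68* and *Lyz2*, while *Adgre1* was at 5.12 to 15.3 CPM and *Csf1r* at 16.3 to 24.5 CPM. Single markers moved in both directions after LPS, so the sum does not stand for each. No gene of the neutrophil, B cell, T cell, eosinophil, mast cell or fibroblast marker lists had a peak, which says nothing of their level. Among the IP libraries some stood apart. On 183 peaks that LPS raised by over 5 on the log2 scale in input, 5 of them members' peaks, the IP libraries of WT mock replicate 1 and Adap-/- mock replicate 2 held 17.4% and 14.4% of the LPS input level, whereas the other mock IP libraries held 1.02% and 1.62% and the mock input libraries 0.847% to 1.22%. On 22 peaks that LPS lowered by over 4 on that scale, none of them a member's, the WT LPS IP libraries held 11.7% and 6.27% of the mock input level. The WT LPS input libraries held 4.40% and 4.39%, and the Adap-/- LPS input libraries 2.43% and 2.58%. The limit of 4 was added after only 3 lowered peaks passed the planned limit of 5. Results on transcript levels rest on input libraries and do not use the IP libraries.

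Per kilobase of peak, the only scale on which genes are compared here, the mean input level over the 4 groups was highest for *Slc31a2* at 2180 CPM per kb, a copper transporter of endosomes and lysosomes. Then came *Slc9a3r1* at 1726, *Slc7a2* at 1619, *Slc11a1* at 1534 and *Slc2a6* at 1192 CPM per kb. *Slc66a3* at 3.09, *Slc6a19* at 6.63, *Slc26a6* at 11, *Slc16a10* at 16.1 and *Slc7a8* at 25.8 CPM per kb were the lowest. These order means over groups that differ, since *Slc7a2* and *Slc2a6* were low in mock PMs, while *Slc11a1*, the metal carrier of the phagosome, was high in every group. The 10 peaks of 1000 bases or more, which span introns, are left out of the levels per kb but stay in the summed counts of their genes. After the filter on low counts 80 of the 83 genes were tested. *Slc29a3*, *Slc66a3* and *Slc6a19* were left out, with at most 2.43 CPM in any library.

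After LPS, the solute carriers of WT PMs changed widely and in both directions. Arginine, cystine and zinc carriers, a lysosomal hexose carrier and the organic anion carrier *Slco3a1* were among the members that rose, and the neutral amino acid carrier LAT4, the glucose 6-phosphate exchanger, a fatty acid carrier and most members of the SLC35 family among those that fell. At an adjusted p below 0.05 (edgeR quasi-likelihood test with Benjamini-Hochberg adjustment over all genes), 26 of the 80 members tested rose, where the share among all genes tested was 30.2%, and 32 fell, where it was 28.9%. The members' median log2 fold change was −0.17, against −0.03 for all genes. The share that rose was thus near that of all genes, and the members' shares were not tested against it. The counts of each class of carriers below stand beside the same shares, 30.2% higher and 28.9% lower among all genes, and no class was tested against other genes. Members named for their fold change were taken from called members whose replicates do not overlap. Lack of overlap in them therefore follows from the choice, and the share of all genes without overlap is not given here. With bulk RNA, a change in the cells that carry a transcript and a change in its amount per cell cannot be told apart. The TMM factors were 1.39 to 1.51 in the mock input libraries and 0.651 to 0.737 in the LPS ones. The size of every LPS response therefore rests on this scaling, and the direction of the smaller ones does too. For example, *Slc30a1* had 1412 and 1118 input reads in WT mock and 1510 and 1299 in WT LPS, whose libraries held more reads in total. Its share of the reads fell, while its scaled level rose.

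**Figure D1:**
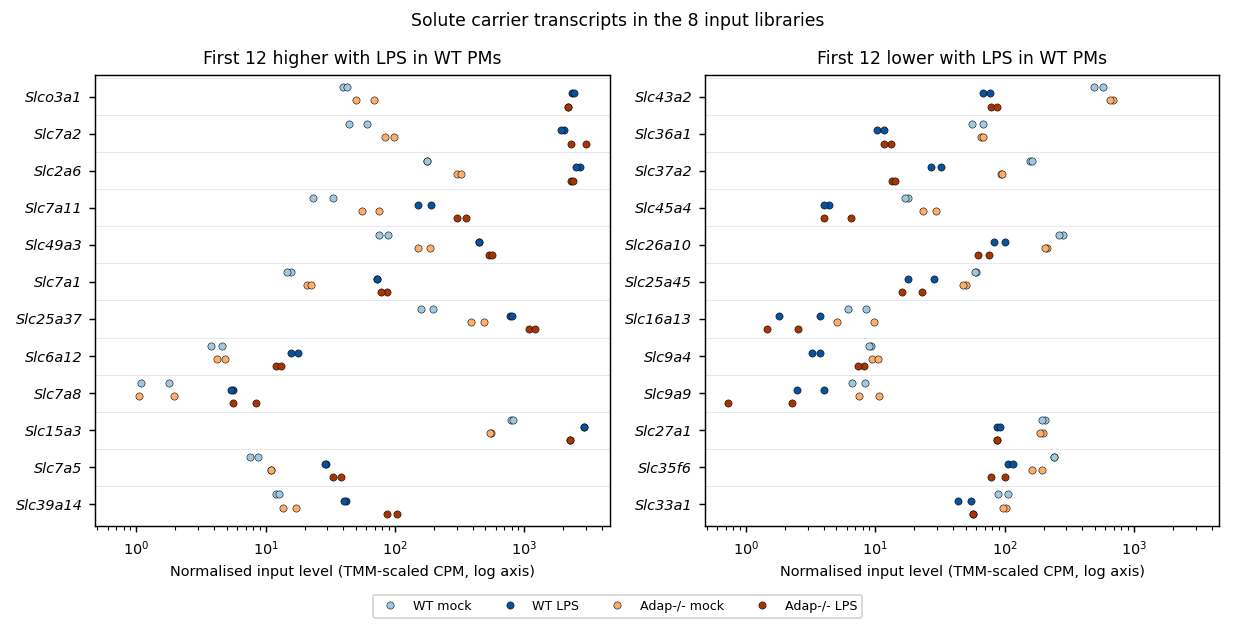
Normalised input level (TMM-scaled CPM, log axis) of the 12 members with the highest and the 12 with the lowest log2 fold change after LPS in WT PMs, 1 point per input library and 4 colours for the groups. Only called members whose replicates do not overlap were listed, so the WT LPS points (dark blue) lie apart from the WT mock points (light blue) by choice. *Slco3a1* was at 39.9 and 42.8 CPM in mock and 2329 and 2445 CPM after LPS.

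Amino acid, amine and peptide carriers split evenly, with 9 of 19 members tested higher and 8 lower after LPS in WT PMs. *Slc7a2* encodes CAT2, the cationic amino acid carrier that feeds arginine to inducible nitric oxide synthase. Its input level was 60.6 and 44.5 CPM in WT mock and 2026 and 1937 CPM in WT LPS PMs (log2 fold change 5.23, standard error 0.17, adjusted p = 2.97e-13). Both LPS libraries lay 37.6-fold above the mock libraries on average. In Adap-/- PMs it was at 84.3 and 98.8 CPM in mock and 2285 and 3019 CPM after LPS (log2 fold change 4.85). *Slc7a1*, the constitutive arginine carrier CAT1, went from 15.6 and 14.6 to 72.1 and 72.3 CPM in WT PMs (log2 fold change 2.26, standard error 0.15, adjusted p = 1.61e-09). It rose in Adap-/- PMs too, from 20.7 and 22.3 to 86.9 and 77.6 CPM.

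*Slc7a11* encodes xCT, which exchanges glutamate for cystine and so supplies glutathione synthesis. Its level in WT PMs was 33 and 23.2 CPM in mock and 190.5 and 151 CPM after LPS (log2 fold change 2.60, standard error 0.19, adjusted p = 3.68e-09). In Adap-/- PMs it was 55.6 and 75.2 CPM and 299 and 354 CPM, above the WT libraries of the same treatment in both cases. Its partner *Slc3a2*, the heavy chain that brings several SLC7 carriers to the membrane, was at 129.9 and 105 CPM in WT mock and 232 and 257 CPM in WT LPS (log2 fold change 1.06, standard error 0.12, adjusted p = 1.7e-06). The light chains LAT1 and LAT2, which import large neutral amino acids with it, also rose. *Slc7a5* went from 8.7 and 7.54 to 29.2 and 28.9 CPM (log2 fold change 1.83, standard error 0.22, adjusted p = 2.13e-06). *Slc7a8* went from 1.79 and 1.08 to 5.59 and 5.42 CPM (log2 fold change 1.91, standard error 0.51, adjusted p = 0.00428).

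Further carriers of this class rose after LPS. *Slc38a2*, the sodium-coupled neutral amino acid carrier SNAT2, was at 54 and 40.1 CPM in WT mock and 96.3 and 107 CPM in WT LPS (log2 fold change 1.11). *Slc6a12*, the betaine and GABA carrier BGT1, was at 4.6 and 3.77 CPM and 15.8 and 17.7 CPM (log2 fold change 1.99). *Slc15a3*, a lysosomal carrier of histidine and of bacterial peptides, was at 792 and 825 CPM and 2895 and 2918 CPM (log2 fold change 1.85, standard error 0.10, adjusted p = 1.24e-10). Both of its peaks are also annotated to other genes, so its reads are not its own beyond doubt. Peak 1, of 3470 bases, is shared with an unnamed gene and holds most of the reads. Peak 2, of 100 bases, is shared with *Tmem132a* and rose less, from 263 CPM per kb in WT mock to 464 in WT LPS. *Slc15a4*, the related endolysosomal carrier needed for signalling by nucleic acid sensing Toll-like receptors, moved the other way, from 83.6 and 87 to 46.6 and 56 CPM (log2 fold change −0.74, standard error 0.12, adjusted p = 8.1e-05).

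*Slc43a2*, the large neutral amino acid carrier LAT4, had the lowest log2 fold change of all members tested in both genotypes. It was at 572 and 491 CPM in WT mock and 67.4 and 77.7 CPM in WT LPS (log2 fold change −2.88, standard error 0.12, adjusted p = 3.96e-12). In Adap-/- PMs it was at 683 and 655 CPM in mock and 77.9 and 86.8 CPM after LPS (log2 fold change −3.03, standard error 0.12, adjusted p = 2.06e-12). All mock libraries lay above all LPS libraries. *Slc36a1*, the proton-coupled amino acid carrier of lysosomes, fell from 67.5 and 56 to 10.3 and 11.6 CPM in WT PMs (log2 fold change −2.50, standard error 0.18, adjusted p = 4.67e-09). Its relative *Slc36a4* was at 72.9 and 66 CPM and 34.2 and 39 CPM (log2 fold change −0.93). The glutamine carrier *Slc1a5* was at 128 and 112 CPM and 58.4 and 78.1 CPM (log2 fold change −0.82), and it fell in Adap-/- PMs as well (log2 fold change −1.10).

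Of the 7 sugar carriers tested, 1 rose and 4 fell in WT PMs. The one that rose was *Slc2a6*, the hexose carrier GLUT6 of lysosomes, with 176 and 177 CPM in WT mock and 2692 and 2510 CPM in WT LPS (log2 fold change 3.88, standard error 0.11, adjusted p = 6.81e-14). *Slc2a1*, the glucose carrier GLUT1 of the plasma membrane, was at 249 and 229.8 CPM and 254 and 279 CPM and did not pass the test (log2 fold change 0.15, standard error 0.10, adjusted p = 0.201). In Adap-/- PMs it did, at 185 and 171 CPM in mock and 212 and 226 CPM after LPS (log2 fold change 0.30), and its only peak is shared with an unnamed gene. *Slc37a2*, the glucose 6-phosphate and phosphate exchanger of the endoplasmic reticulum, fell from 157 and 162 to 32.3 and 27.1 CPM in WT PMs (log2 fold change −2.42, standard error 0.13, adjusted p = 6.29e-11). *Slc45a4* was at 17.9 and 17 CPM and 4.35 and 3.98 CPM (log2 fold change −2.05), and *Slc50a1*, the sugar carrier SWEET1, had a log2 fold change of −0.72. WT mock and WT LPS libraries did not overlap in *Slc2a6*, *Slc37a2* or *Slc45a4*, which the choice of named members asked for.

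Of the 12 metal and heme carriers tested, 8 were higher (30.2% of all genes) and 1 was lower (28.9% of all genes). Their median log2 fold change was 0.57. *Slc39a14*, the importer ZIP14 of zinc and of iron not bound to transferrin, was at 12 and 12.7 CPM in WT mock and 41.6 and 40.1 CPM in WT LPS (log2 fold change 1.73, standard error 0.19, adjusted p = 5.94e-07). *Slc31a2* was at 412 and 409 CPM and 1376 and 1218 CPM (log2 fold change 1.66, standard error 0.11, adjusted p = 1.02e-09). *Slc11a2*, the iron carrier DMT1, was at 29.4 and 22.4 CPM and 49.7 and 43.7 CPM (log2 fold change 0.85). The zinc carriers of the Golgi and vesicles *Slc30a6*, *Slc30a7* and *Slc30a4* rose with log2 fold changes of 1.29, 0.57 and 1.10, and the zinc importer *Slc39a6* with 0.58. *Slc30a1*, the zinc exporter ZnT1 of the plasma membrane, went from 361 and 301 to 469 and 469.5 CPM (log2 fold change 0.50, standard error 0.12, adjusted p = 0.00206). *Slc11a1* was the metal carrier that fell, from 1694 and 1642 to 1282 and 1169 CPM (log2 fold change −0.44, standard error 0.10, adjusted p = 0.0012).

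Of the 8 mitochondrial carriers tested 3 rose and 4 fell. *Slc25a37*, the iron importer mitoferrin-1, went from 197 and 160.1 CPM in WT mock to 772 and 804 CPM in WT LPS (log2 fold change 2.14, standard error 0.13, adjusted p = 4.03e-10). Its relative mitoferrin-2, *Slc25a28*, moved by 0.34 on the log2 scale. *Slc25a45* fell from 59.6 and 58.5 to 18 and 28.2 CPM (log2 fold change −1.37, standard error 0.19, adjusted p = 1.51e-05), and the branched-chain amino acid carrier *Slc25a44* and the NAD carrier *Slc25a51* had log2 fold changes of −0.42 and −0.35. *Slc25a46*, a protein of the outer mitochondrial membrane, was the remaining member that rose (log2 fold change 0.38). The class was divided, with both iron importers on the higher side.

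The SLC35 family holds the nucleotide sugar carriers of the endoplasmic reticulum and Golgi, beside members with other or unsettled substrates, and was counted together with the acetyl-CoA carrier of SLC33. Of these 9 members 7 fell, where 28.9% of all genes did, and the others did not pass the test, with a median log2 fold change of −0.78. *Slc35f6*, whose substrate is not settled, went from 239 and 239 to 107 and 117 CPM in WT PMs (log2 fold change −1.10, standard error 0.13, adjusted p = 1.48e-06). *Slc33a1*, that acetyl-CoA carrier, went from 105 and 89.2 to 54.7 and 43.4 CPM (log2 fold change −0.98, standard error 0.14, adjusted p = 1.12e-05), and its peak is shared with an unnamed gene. The GDP-fucose carrier *Slc35c1* fell by 0.85 on the log2 scale, and *Slc35b2*, which brings the sulfate donor PAPS into the Golgi, by 0.78. Of the same 9, 3 fell in Adap-/- PMs, where 26% of all genes did, with a median of −0.37. None of the 9 had a difference between the genotypes' responses that passed the test.

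*Slco3a1*, which encodes the organic anion carrier OATP3A1, had the highest log2 fold change among the members in both genotypes. It was at 39.9 and 42.8 CPM in WT mock and 2329 and 2445 CPM in WT LPS (log2 fold change 5.85, standard error 0.15, adjusted p = 2.03e-14), and at 69 and 50.2 CPM and 2178 and 2161 CPM in Adap-/- PMs (log2 fold change 5.19). No LPS library came near a mock library. The counts of *Slco3a1* include peak 2, which spans 144657 bases and is also annotated to an unnamed gene. Its peaks 3, 5 and 6, of 18698, 1962 and 15286 bases, span introns too. *Slc27a1*, the long-chain fatty acid carrier FATP1, fell from 205 and 195 to 87 and 92.2 CPM in WT PMs (log2 fold change −1.16, standard error 0.11, adjusted p = 7.77e-08). *Slc16a3*, the lactate exporter MCT4, was at 58.6 and 57.7 CPM and 45.1 and 62.9 CPM with overlapping groups (log2 fold change −0.12, standard error 0.15, adjusted p = 0.554). *Slc44a1*, a choline carrier, and *Slc12a4*, the potassium and chloride cotransporter KCC1 whose peak is shared, rose by 1.55 and 1.53 on the log2 scale. *Slc49a3*, of little known function, went from 89 and 74.9 to 445 and 447 CPM (log2 fold change 2.44, standard error 0.12, adjusted p = 3.45e-11).

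Some of the members named by the rule had few reads or shared peaks. *Slc26a10* fell from 285 and 264 to 83.3 and 101 CPM (log2 fold change −1.58, standard error 0.12, adjusted p = 1.14e-08), but its only peak is also annotated to *B4galnt1*, a ganglioside synthase. *Slc9a4*, a sodium and proton exchanger, was at 9.21 and 8.89 CPM and 3.73 and 3.25 CPM (log2 fold change −1.36). *Slc16a13* was at 8.44 and 6.2 CPM and 3.73 and 1.81 CPM (log2 fold change −1.36, standard error 0.48, adjusted p = 0.0233), and the call was lost by DESeq2 (adjusted p = 0.0602), without WT mock replicate 1 (0.112) or without WT LPS replicate 2 (0.17). *Slc9a9*, the exchanger NHE9 of endosomes, was at 6.65 and 8.35 CPM and 2.49 and 3.98 CPM (log2 fold change −1.22, standard error 0.44, adjusted p = 0.026), with adjusted p-values of 0.0780 by DESeq2, 0.105 without WT mock replicate 2 and 0.191 without WT LPS replicate 1. Both calls thus rested on single libraries.

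Promoter windows of 3 members are shown, chosen because their transcripts rose or fell in both genotypes and a motif known for stress or inflammatory factors lies in each. Each window holds the 250 bases before the transcription start, 5′ to 3′ on the gene's strand, from RefSeq on GRCm38.p6, and capitals mark the motif. *Slc7a11* (chr3:50443614-50443863, minus strand) holds the ATF4 element TGATGNAA on both strands, starting 66 and 47 bases before the start. *Slc43a2* (chr11:75531444-75531693, plus strand, the first of 2 starts) holds a kB element 226 bases before it, and *Slc37a2* (chr9:37255739-37255988, minus strand) the AP-1 element TGANTCA 107 bases before it.
Slc7a11: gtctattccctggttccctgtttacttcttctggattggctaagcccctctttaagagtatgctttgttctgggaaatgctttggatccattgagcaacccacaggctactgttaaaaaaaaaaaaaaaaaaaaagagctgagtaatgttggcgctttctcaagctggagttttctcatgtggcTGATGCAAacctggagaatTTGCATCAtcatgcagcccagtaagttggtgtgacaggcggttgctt
Slc43a2: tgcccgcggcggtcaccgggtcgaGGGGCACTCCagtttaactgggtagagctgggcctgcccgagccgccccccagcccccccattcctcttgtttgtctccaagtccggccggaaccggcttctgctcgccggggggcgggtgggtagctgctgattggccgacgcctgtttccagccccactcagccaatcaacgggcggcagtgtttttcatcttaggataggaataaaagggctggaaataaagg
Slc37a2: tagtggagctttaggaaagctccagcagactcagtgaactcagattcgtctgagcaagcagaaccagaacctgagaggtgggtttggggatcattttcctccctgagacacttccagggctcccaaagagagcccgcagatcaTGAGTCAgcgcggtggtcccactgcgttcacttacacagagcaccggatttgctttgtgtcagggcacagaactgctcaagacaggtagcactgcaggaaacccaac
A promoter was in the table for 53 of the 82 member symbols. A symbol was counted if any of its starts had the motif on either strand. The ATF4 element was found for 5 of the 53 and for 3.91% of all 27025 symbols with a promoter. The AP-1 element was found for 7 and for 7.82%, and the kB element for 5 and for 8.23%. Of the members with a promoter, 16 were higher and 21 lower with LPS in WT PMs. The ATF4 element was in 1 and 3 of these, the AP-1 element in 2 and 4, and the kB element in 1 and 3. Neither *Slco3a1* nor *Slc7a2* had an entry. The matches are letters in a window and were not tested for binding.

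In Adap-/- PMs, 22 members rose after LPS, where 28.5% of all genes tested did, and 24 fell, where 26% did. Between the genotypes, 20 members rose in both, where 25.8% of all genes tested did, and 23 fell in both, where 22.3% did. None was called in opposite directions, where 0.0844% of all genes were. The first by log2 fold change were again *Slco3a1* (5.19), *Slc7a2* (4.85) and *Slc2a6* (2.89), then *Slc39a14* (2.61), *Slc7a11* (2.31) and *Slc7a8* (2.16). On the lower side stood *Slc43a2* (−3.03), *Slc37a2* (−2.76), *Slc9a9* (−2.50), *Slc36a1* (−2.42), *Slc45a4* (−2.29) and *Slc16a13* (−1.82, adjusted p = 0.00629, and 0.0897 without Adap-/- mock replicate 1).

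**Figure D2:**
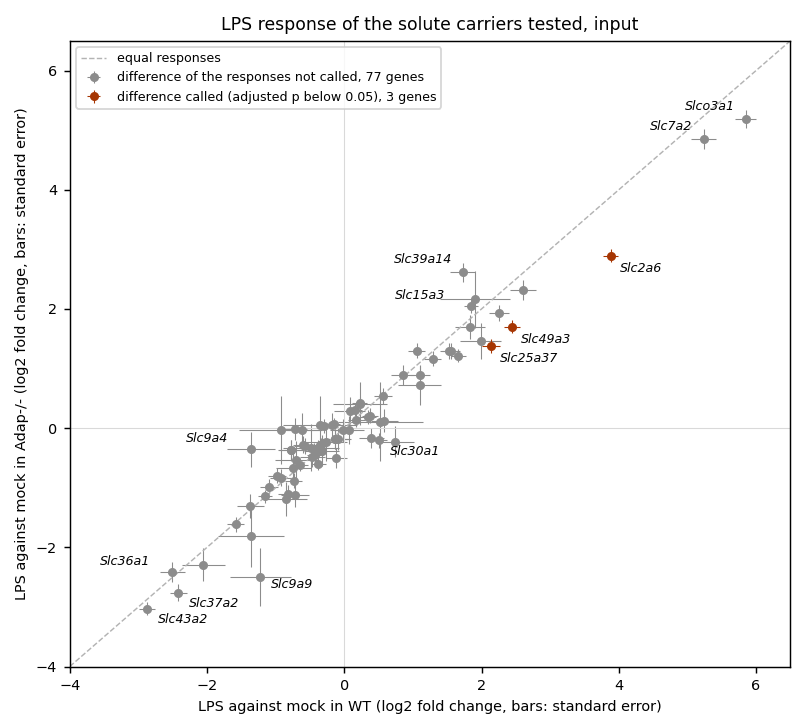
Log2 fold change after LPS in WT PMs (x axis) and in Adap-/- PMs (y axis) of the 80 solute carriers tested, with standard errors as bars and a dashed line at equal responses. *Slc2a6*, *Slc49a3* and *Slc25a37*, in brown, lie below the line and are the members whose responses differed past the threshold.

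The difference of the LPS responses passed the threshold for 3 members, all with a smaller rise in Adap-/- PMs, where 1.29% of all genes tested were called in that direction. None was called in the other direction by edgeR, where 0.358% of all genes were. In either direction 11 of the 80 members had an unadjusted p below 0.05, near the 12.7% of all genes. DESeq2 called 5 lower, where 1.77% of all genes were, and 0 higher, where 0.223% were. For *Slc2a6* the response was 3.88 in WT and 2.89 in Adap-/- PMs (difference −0.99, standard error 0.14, adjusted p = 0.00179). Its mock level was 302 and 326 CPM in Adap-/- against 176 and 177 CPM in WT PMs, while after LPS it was 2303 and 2368 CPM against 2692 and 2510 CPM. *Slc25a37* differed by −0.76 (standard error 0.17, adjusted p = 0.0346), with 391 and 489 CPM in Adap-/- mock and 1089 and 1200 CPM in Adap-/- LPS. *Slc49a3* differed by −0.74 (standard error 0.16, adjusted p = 0.0297), with 151 and 185 CPM and 534 and 563 CPM. In each of the 3 the Adap-/- mock libraries lay above the WT mock libraries. The calls of *Slc25a37* and *Slc49a3* were lost on leaving out 6 of the 8 libraries, one at a time, with adjusted p-values of 0.0697 to 0.272 and 0.0714 to 0.232.

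After LPS, Adap-/- PMs had more transcript of an iron and zinc importer, of xCT and of mitoferrin-1 than WT PMs, and less of a zinc exporter, of the lactate exporter and of the glucose 6-phosphate exchanger. At an adjusted p below 0.05, 5 of the 80 members were higher, where 6.03% of all genes tested were, and 5 were lower, where 9.78% were. *Slc39a14* was at 87.4 and 103 CPM in Adap-/- LPS and 41.6 and 40.1 CPM in WT LPS (log2 fold change 1.21, standard error 0.15, adjusted p = 7.7e-05). *Slc7a11* was at 299 and 354 CPM and 190.5 and 151 CPM (log2 fold change 0.93, standard error 0.15, adjusted p = 0.000865). *Slc16a6*, the monocarboxylate carrier MCT7, was at 93.1 and 80.6 CPM and 54.1 and 39.4 CPM (log2 fold change 0.89, standard error 0.15, adjusted p = 0.00113). In these 3 genes both Adap-/- libraries lay above both WT libraries, which the choice of named members asked for, and the calls held without any 1 library. *Slc25a37* was at 1089 and 1200 CPM and 772 and 804 CPM (log2 fold change 0.54, standard error 0.12, adjusted p = 0.00617), with an adjusted p of 0.0597 when WT LPS replicate 1 was left out and 0.0699 when Adap-/- LPS replicate 2 was. *Slc9a4* was at 8.18 and 7.29 CPM and 3.73 and 3.25 CPM (log2 fold change 1.14, standard error 0.37, adjusted p = 0.0461), and its call was lost without any 1 of the 4 LPS libraries (adjusted p = 0.107 to 0.176) and with only the libraries compared (0.0651), while DESeq2 gave no adjusted p.

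Lower after LPS in Adap-/- PMs was *Slc37a2*, at 13.5 and 14.2 CPM against 32.3 and 27.1 CPM in WT PMs (log2 fold change −1.11, standard error 0.17, adjusted p = 0.000569). *Slc30a1* was at 298 and 244 CPM against 469 and 469.5 CPM (log2 fold change −0.79, standard error 0.12, adjusted p = 0.000573). This zinc exporter had risen with LPS in WT PMs and not in Adap-/- PMs (log2 fold change −0.20), but the difference of the responses did not pass the threshold (−0.70, adjusted p = 0.0562). *Slc16a3* was at 33 and 27.7 CPM against 45.1 and 62.9 CPM (log2 fold change −0.81, standard error 0.17, adjusted p = 0.00449), with an adjusted p of 0.0661 when WT LPS replicate 2 was left out and 0.0534 when Adap-/- LPS replicate 2 was. *Slc15a3*, on shared peaks, was at 2272 and 2261 CPM against 2895 and 2918 CPM (log2 fold change −0.36, standard error 0.10, adjusted p = 0.0199), and its adjusted p was 0.0826 to 0.135 without any 1 LPS library. *Slc26a10*, on the peak shared with *B4galnt1*, had a log2 fold change of −0.42 (adjusted p = 0.0471), and the adjusted p became 0.306 when WT LPS replicate 2 was left out and 0.325 when Adap-/- LPS replicate 1 was. The call of *Slc26a10* was also lost by DESeq2 (adjusted p = 0.0892), without a filter on low counts (0.0513), with at least 10 reads asked of every input library (0.0545) and with only the libraries compared (0.0675). The count of 10 called members fell to 6 without Adap-/- LPS replicate 2 or without WT LPS replicate 2. Over all genes the calls fell from 286 higher and 464 lower of 4742. They became 124 and 230 of 4769 without Adap-/- LPS replicate 2 and 175 and 334 of 4771 without WT LPS replicate 2.

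Without LPS, 12 members were higher in Adap-/- PMs, where 8.71% of all genes tested were, and 9 were lower, where 8.65% were. *Slc25a37* was at 391 and 489 CPM in Adap-/- mock and 197 and 160.1 CPM in WT mock (log2 fold change 1.30, standard error 0.13, adjusted p = 1.13e-05). *Slc7a11* was at 55.6 and 75.2 CPM and 33 and 23.2 CPM (log2 fold change 1.22, standard error 0.19, adjusted p = 0.00064). *Slc49a3* was at 151 and 185 CPM and 89 and 74.9 CPM (log2 fold change 1.04, standard error 0.12, adjusted p = 6.91e-05). All Adap-/- mock libraries lay above all WT mock libraries in these genes, again by the choice of named members. *Slc2a6* had a log2 fold change of 0.83 (adjusted p = 0.000133) and *Slc7a2* one of 0.80 (adjusted p = 0.00426, and 0.0672 without Adap-/- mock replicate 2). *Slc16a6* was at 114 and 101 CPM and 74.4 and 66 CPM (log2 fold change 0.61, adjusted p = 0.00635), with 0.0573 without WT mock replicate 2 and 0.0656 without Adap-/- mock replicate 1.

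On the lower side in mock PMs, *Slc37a2* was at 93.2 and 94.7 CPM in Adap-/- and 157 and 162 CPM in WT PMs (log2 fold change −0.76, standard error 0.11, adjusted p = 0.000239). *Slc6a8*, the creatine carrier, was at 57.5 and 53.6 CPM and 92.6 and 86.2 CPM (log2 fold change −0.69, standard error 0.13, adjusted p = 0.00187). *Slc35e4* was at 23.6 and 28.9 CPM and 47.3 and 42.6 CPM (log2 fold change −0.77, adjusted p = 0.00549, and 0.0656 without Adap-/- mock replicate 1). No library of one genotype overlapped the other in these 3 genes, which were chosen on that condition. *Slc15a3* had a log2 fold change of −0.55 and *Slc2a1*, on a shared peak, of −0.43 (adjusted p = 0.0079, and 0.111 without Adap-/- mock replicate 2). *Slc35b3*, a PAPS carrier like *Slc35b2*, had −0.66 (adjusted p = 0.0252), and the call was lost by DESeq2 (0.0869) and without any 1 mock library (0.0557 to 0.130). The 21 called members became 13 by DESeq2, 11 without Adap-/- mock replicate 1, 10 without Adap-/- mock replicate 2 and 11 without WT mock replicate 2. The calls over all genes fell as well, from 413 higher and 410 lower of 4742. They became 294 and 264 of 4928 by DESeq2 and 297 and 237 of 4821 without Adap-/- mock replicate 1. Without Adap-/- mock replicate 2 they were 160 and 148 of 4821, and without WT mock replicate 2 they were 248 and 189 of 4817. The comparisons of the genotypes in mock and after LPS share no library, and 3 of the 80 members were called higher in both (*Slc25a37*, *Slc7a11* and *Slc16a6*), where 2.85% of all genes were, and 3 lower in both (*Slc37a2*, *Slc15a3* and *Slc26a10*), where 4.01% were.

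**Figure D3:**
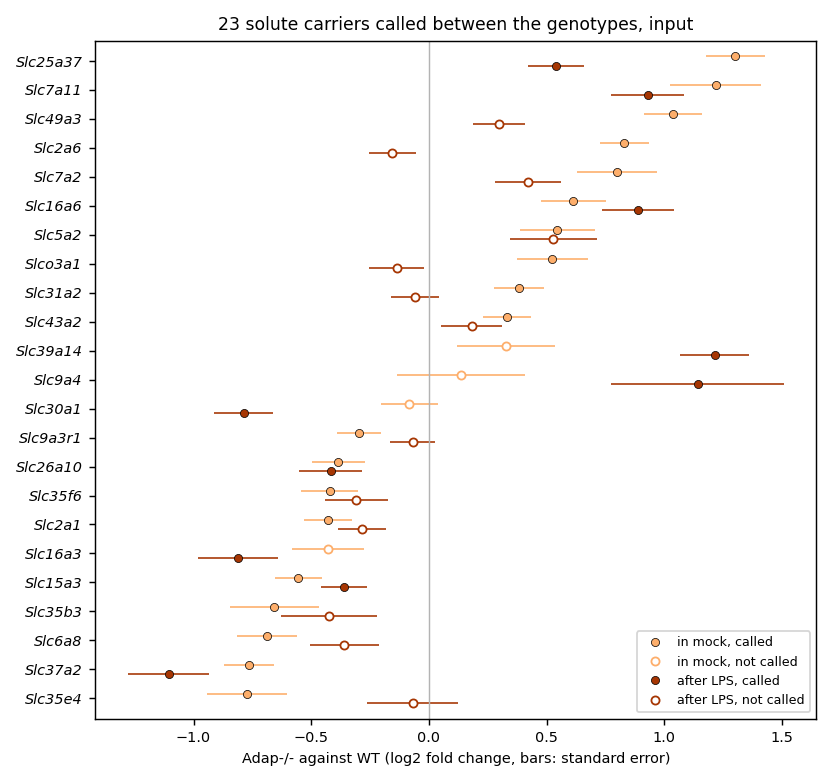
Log2 fold change of Adap-/- against WT PMs in mock (light) and after LPS (dark) for 23 member symbols called in either comparison, with standard errors as bars and filled points for called values. *Slc25a37* and *Slc7a11* lie on the higher side in both, *Slc37a2* on the lower side in both, and *Slc39a14* and *Slc30a1* are filled after LPS alone.

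Other transport genes give a frame for these values. Of 33 carriers whose symbol does not begin with Slc, 10 were in the table and 9 tested, of which 1 rose and 5 fell after LPS in WT PMs (30.2% and 28.9% of all genes), and 1 rose and 5 fell in Adap-/- PMs (28.5% and 26% of all genes). *Ucp2*, the mitochondrial uncoupling protein, fell by 1.62 on the log2 scale in WT PMs, the lysosomal cystine exporter *Ctns* by 1.48 and the lysosomal protein *Mfsd12* by 1.29. Of 25 genes that use or handle the carried solutes 11 were tested, of which 7 rose and 2 fell in WT PMs, beside the same shares of all genes. *Nos2*, which turns arginine into nitric oxide, was at 2.56 and 9.16 CPM in WT mock and 3464 and 5063 CPM in WT LPS, and *Arg1*, the arginase that competes for arginine, at 98.2 and 228 CPM and 30.1 and 40.5 CPM. *Hk2*, a hexokinase, rose by 1.91 and the ferritin chains *Fth1* and *Ftl1* moved by 0.37 and −0.60 on the log2 scale. These lists were chosen with results of the data known and are given for description.

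The m6A peaks of the members lay at the stop codon in 42.9% of cases (33.9% of all peaks), in the coding sequence (CDS) in 16.8% (31.7%), at the start codon in 16.8% (13.6%), in the 3′ UTR in 16% (16%) and in the 5′ UTR in 6.72% (2.29%). On the 103 member peaks with a mean of at least 20 input reads, the median log2 IP-to-input ratio, averaged over the 4 groups, was −0.30, against −0.11 for the 6062 such peaks of all genes. The ratio is relative to the libraries' own totals over peaks, so a value below 0 does not mean that m6A is absent. The log2 ratio was above 1 on 4 of these member peaks (6.70% of all such peaks) and below −1 on 14 (9.37%).

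The highest mean ratio was that of *Slc35e1* at its stop codon (chr8:73237110-73237584, minus strand, in the coordinates of the table, for which the submitters' processing notes name GRCm39), with log2 ratios of 1.04 and 1.66 in WT mock, 1.32 and 1.46 in WT LPS, 1.61 and 1.16 in Adap-/- mock and 1.55 and 1.42 in Adap-/- LPS. Next came the peaks of *Slc45a4* at the start codon (mean 1.20), *Slc49a4* at the stop codon (1.08), *Slc39a14* at the stop codon (1.06) and *Slc16a6* in the CDS (0.99). The peak of *Slc45a4* had 37 to 57 input reads in mock and 3 to 14 after LPS, so its place in this order rests on few reads in the LPS groups. On *Slc39a14* (chr14:70543768-70544117, minus strand) the log2 ratios were 1.16 and 0.80 in WT mock, 1.00 and 1.14 in WT LPS, 1.28 and 1.30 in Adap-/- mock and 0.99 and 0.85 in Adap-/- LPS. The ratio of this zinc importer thus stayed close in every replicate, while its input level lay between 12 and 103 CPM. The lowest mean ratios were those of *Slc7a2* in the CDS (−2.11) and at the start codon (−1.56), *Slc49a3* in the 3′ UTR (−1.78) and *Slco3a1* peaks 4 and 7 in the CDS (−1.65 and −1.62). These 5 peaks belong to LPS-raised transcripts. The *Slco3a1* peaks had 15 to 48 input reads in mock and 675 to 1194 after LPS, and the means of all 5 include the mock IP libraries that stood apart, so they do not settle an order among members.

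**Figure D4:**
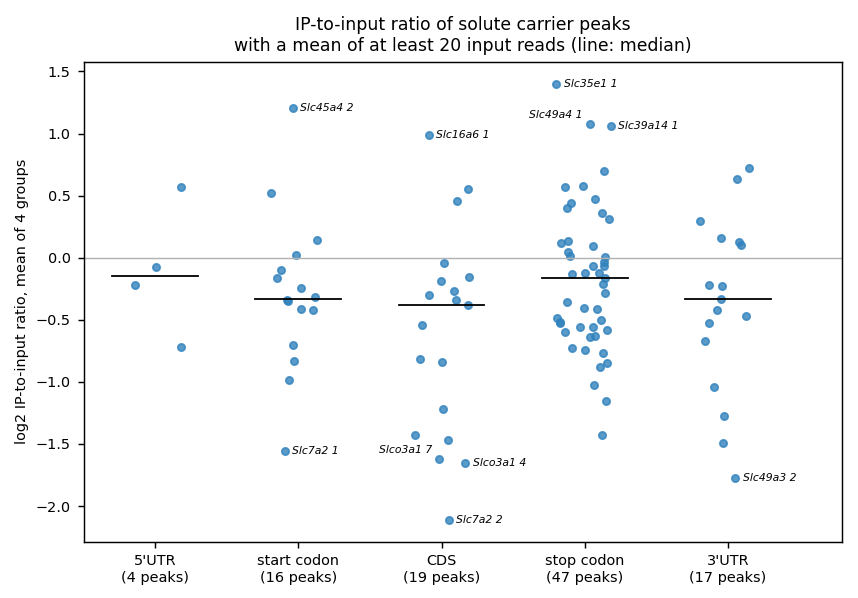
Mean log2 IP-to-input ratio over the 4 groups of the member peaks with a mean of at least 20 input reads, by region, 1 point per peak and a line at the median. Points are spread sideways for visibility. The median is −0.16 on the 47 stop codon peaks and −0.38 on the 19 CDS peaks.

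No member peak passed the threshold in any comparison of the IP-to-input ratio by edgeR. Of all peaks it called 0% in either direction for LPS in WT PMs, for LPS in Adap-/- PMs and for the genotypes in mock, and for the genotypes after LPS 0% higher and 0.0142% lower. For LPS in WT PMs, 22 of the 119 member peaks had an unadjusted p below 0.05, where 10.8% of all peaks did. DESeq2 called 1 of them higher, where 0.340% of all peaks were, and 9 lower, where 2.54% were. The 9 were *Slc7a2* peak 2 and *Slco3a1* peaks 2, 3, 4, 5, 6, 7, 9 and 10. Since 10 of the 119 member peaks lie on the *Slco3a1* transcript, these counts of peaks are not counts of separate carriers. This test kept the mock IP libraries that stood apart. For LPS in Adap-/- PMs, 16 member peaks had an unadjusted p below 0.05 (11.5% of all peaks), and DESeq2 called 0 higher (0.0850%) and 4 lower (1.57%). The 4 were *Slc26a6* peak 1 and *Slco3a1* peaks 3, 4 and 10. For Adap-/- against WT after LPS, 10 had an unadjusted p below 0.05 (7.13%), and DESeq2 called none, with 0% of all peaks higher and 0.411% lower. For the genotypes in mock, 1 had an unadjusted p below 0.05 (2.1%), and DESeq2 called none of all peaks.

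Peaks on the transcripts with the highest LPS response differed strongly between the replicates of mock PMs. At the stop codon of *Slc7a2* (chr8:41369511-41369785, plus strand) the log2 ratios were 2.26 and −1.60 in WT mock, −1.30 and 1.80 in Adap-/- mock, −2.32 and −2.58 in WT LPS and −2.22 and −2.26 in Adap-/- LPS. On *Slco3a1* peak 8, at the stop codon (chr7:73933936-73934185, minus strand), they were 2.73 and 0.86, 0.20 and 2.84, −0.32 and −0.15 and −0.22 and −0.33 in the same order. On *Slc2a6* peak 2, at the stop codon (chr2:26911375-26911874, minus strand), they were 1.64 and −0.48, −0.63 and 0.30, −1.05 and −0.99 and −0.86 and −0.79. In all 3 the high values were those of WT mock replicate 1 and Adap-/- mock replicate 2, the replicates whose IP libraries held LPS-raised transcripts in excess. On *Slc7a2* these libraries had 1652 and 2075 IP reads over 114 and 222 input reads, and the other mock libraries 189 and 476 IP reads over 96 and 151 input reads.

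**Figure D5:**
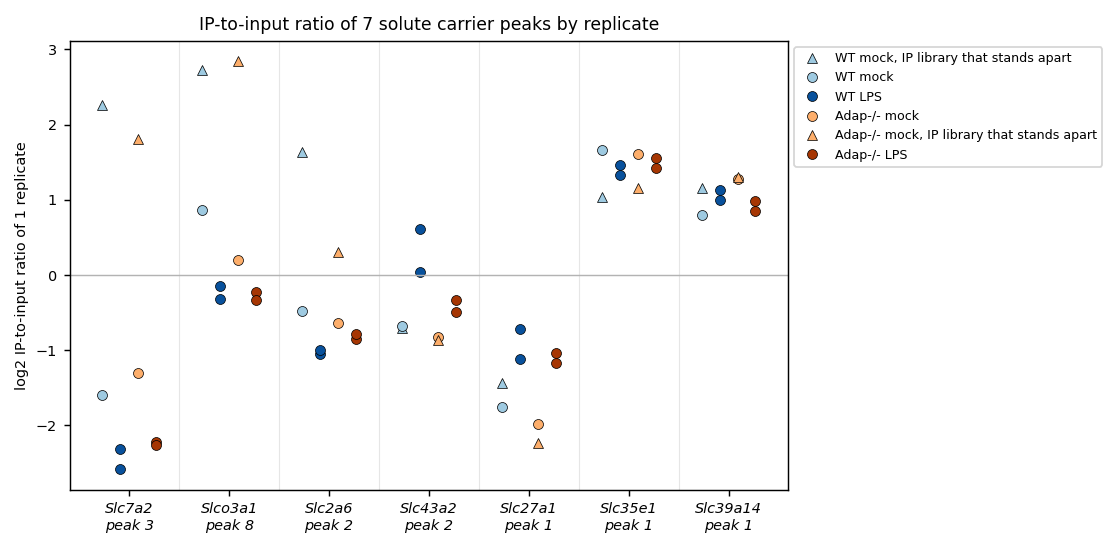
Log2 IP-to-input ratio of 7 member peaks in each replicate, with triangles for WT mock replicate 1 and Adap-/- mock replicate 2. The triangles lie above every other point on the peaks of *Slc7a2*, *Slco3a1* and *Slc2a6*, and not on those of *Slc43a2*, *Slc27a1* and *Slc35e1*.

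Without those 2 IP libraries, a setting chosen after seeing the data, 6 member peaks were called for LPS in WT PMs, 1 higher and 5 lower (0.538% and 1.73% of all peaks), and 3 in Adap-/- PMs, 0 higher and 3 lower (1.40% and 2.41% of all peaks). Each mock group then holds 1 IP library, which has no replicate and is assumed to vary like the libraries of the other groups. *Slc43a2* peak 2, at the stop codon (chr11:75463334-75463833, plus strand), had log2 ratios of −0.70 and −0.68 in WT mock, 0.61 and 0.04 in WT LPS, −0.82 and −0.86 in Adap-/- mock and −0.49 and −0.33 in Adap-/- LPS. All LPS values lay above all mock values, while its input level fell. With all libraries the LPS effect in WT PMs was 1.02 on the log2 scale (standard error 0.24, adjusted p = 0.207), and without the 2 IP libraries 1.08 (standard error 0.23, adjusted p = 0.0322). The WT LPS IP libraries also held LPS-lowered transcripts in excess, and the part of this in the ratio of *Slc43a2* was not tested. The other 5 peaks called in WT PMs were *Slco3a1* peaks 2, 3, 4, 8 and 10, all lower after LPS, with differences of −2.13, −3.89, −3.48, −1.28 and −4.82 on the log2 scale. *Slco3a1* peaks 3, 4 and 9 were the ones called in Adap-/- PMs, also lower, with −3.22, −3.44 and −1.95. Their mock input was 3 to 27 reads on peaks 3, 4, 8, 9 and 10, so these ratios rest on few reads in mock PMs.

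The remaining peaks with the smallest p-values, none called with all libraries, were as follows. *Slc27a1* at the stop codon had log2 ratios of −1.97 and −2.23 in Adap-/- mock and −1.03 and −1.17 in Adap-/- LPS (difference 0.99, standard error 0.25, adjusted p = 0.235), and of −1.43 and −1.75 and −0.71 and −1.12 in WT PMs. All 4 LPS values lay above all 4 mock values, and the input level of this fatty acid carrier fell. *Slc26a6* at the start codon differed by −3.46 in Adap-/- PMs (standard error 0.86, adjusted p = 0.235), on a mean of 7.88 input reads. After LPS, *Slc45a4* peak 2 (difference −2.26, standard error 0.69, adjusted p = 0.525), *Slc43a2* peak 2 (difference −0.74, standard error 0.24, adjusted p = 0.557) and *Slc1a5* peak 3 (difference −0.88, standard error 0.30, adjusted p = 0.581) were lower in Adap-/- than in WT PMs without passing the threshold. *Slc45a4* peak 2 had 3 and 4 input reads in WT LPS and 14 and 4 in Adap-/- LPS. Transcripts of all 3 fell with LPS, and the IP libraries of WT LPS held 11.7% and 6.27% of the mock level of LPS-lowered transcripts where those of Adap-/- LPS held 2.22% and 2.29%. The part of this in these differences was not tested. In mock PMs the first were *Slc26a6* (difference 1.94, standard error 0.82, adjusted p = 1), *Slc27a1* (difference −0.51, standard error 0.25, adjusted p = 1) and *Slc7a6os* (difference 0.90, standard error 0.48, adjusted p = 1). The spread between replicates was 30.6% on peaks (biological coefficient of variation) against 8.82% on genes, so a difference in the ratio had to be larger than one in the input level to pass the test.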

How the data were processed

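The deposited table of raw read counts per merged peak, made by the authors, has 8094 lines, or 7069 distinct peaks once repeats of a peak under each of its genes are dropped. Its 16 count columns were mapped to samples by their names. The submitters' processing notes name Bowtie2 2.2.8, MACS2 2.1.2, DiffBind 2.8 and GRCm39, without saying which step each served. Whether counting used strand is not given in the sources used here, so 15 member peaks annotated to other genes as well, and the 8 members with only such peaks, have uncertain reads.

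Input counts were summed per gene ID over its distinct peaks. They were fitted in R 4.3.3 with edgeR 4.0.16 (TMM scaling, filterByExpr at min.count 10 and min.total.count 15, quasi-likelihood F test, p-values adjusted by Benjamini-Hochberg over all features tested), with 1 mean per group. The 8 input libraries gave 4742 genes tested. The IP-to-input ratio was tested on 7058 peaks in 1 fit of the 16 libraries, as the IP to input difference of 1 group minus that of another. A call is an adjusted p below 0.05. Ratios of single replicates were formed with 0.5 reads added to each count. Counting errors do not cover PCR duplicates, since molecules were not marked.

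IP and input libraries of the same number came from the same RNA by the protocol. Across peaks the deviations of the paired libraries correlated with r = −0.098 in WT mock, 0.091 in WT LPS, 0.024 in Adap-/- mock and 0.078 in Adap-/- LPS PMs. Alternatives were DESeq2 1.42.0, RLE factors or TMM within library type, other filters, peaks of 1 gene only, a log2 fold change above 1 in addition, the replicate block, only the libraries compared, and leaving out each replicate. The members, classes, lists and motifs were chosen with earlier results of these data known. Members named are the first 12 by log2 fold change in each direction for LPS in WT PMs and the first 6 in the other comparisons, among those called, with replicates that do not overlap and a mean of at least 10 reads in the higher group. Carriers with textbook roles in macrophages, the highest and lowest 5 by level per kb and by ratio, and the 3 peaks with the smallest p in each ratio comparison are also named. Some members and their values are not reported here.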

Additional observations from a re-analysis of the deposited data

Results flagged for a closer look

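The LPS responses of 3 members differed between the genotypes by the test of the difference. On the log2 scale the response in Adap-/- PMs minus that in WT PMs was −0.99 for *Slc2a6*, −0.76 for *Slc25a37* and −0.74 for *Slc49a3*, and leaving out single libraries ended the calls of *Slc25a37* and *Slc49a3* as given above.

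In a further 3 members both replicates moved one way after LPS in one genotype and the other way in the other. How often all genes did so is not given here, so this number of members is not set against it. The difference was −0.56 for *Slc38a1*, a glutamine carrier (adjusted p = 0.359), 0.34 for *Slc38a7*, the glutamine exporter of lysosomes (adjusted p = 0.416), and 0.23 for *Slc9a3r1*, the scaffold protein (adjusted p = 0.537). *Slc38a1* was at 46.6 and 29.4 CPM in WT mock, 49.4 and 50.6 CPM in WT LPS, 53 and 54.9 CPM in Adap-/- mock and 44.9 and 51.8 CPM in Adap-/- LPS. The test of the difference by edgeR did not pass its threshold for these 3.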

How the results depend on the processing

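Over all comparisons and alternatives, 86 counts of called members stayed within 1.5 times the count given above and 25 did not. Asking for an absolute log2 fold change above 1 in addition left 30 members for LPS in WT, 29 for LPS in Adap-/- PMs, 3 between the genotypes after LPS, 3 in mock and 0 for the difference of the responses. Of the 4742 genes tested it left 876 higher and 702 lower for LPS in WT and 792 and 583 in Adap-/- PMs. It left 64 and 55 between the genotypes after LPS, 79 and 44 in mock and 8 and 28 for the difference. DESeq2 called 13 members between the genotypes in mock and 5 for the difference, and in the ratio 10 member peaks for LPS in WT and 4 in Adap-/- PMs. Most of those member peaks lay on *Slco3a1*. Over 4928 genes DESeq2 called 294 higher and 264 lower in mock and 11 and 87 for the difference. Over 7060 peaks it called 24 and 179 for LPS in WT and 6 and 111 in Adap-/- PMs. With only the libraries compared, 1 member peak was called in the ratio for LPS in WT PMs, the only call among 7056 peaks. Without the IP libraries of WT mock replicate 1 and Adap-/- mock replicate 2, chosen after seeing the data, the ratio gave 6 peaks for LPS in WT and 3 in Adap-/- PMs. Leaving out each replicate gave 48 to 53 members for LPS in WT, 40 to 44 in Adap-/- PMs, 6 to 9 between the genotypes after LPS, 10 to 20 in mock and 1 to 5 for the difference, and 0 to 3 and 0 to 1 member peaks in the ratio for LPS in WT and in Adap-/- PMs. The highest member counts in the ratio came without WT mock replicate 2 (3 peaks) and without Adap-/- mock replicate 1 (1 peak). Over 4768 to 4821 genes these fits called 1302 to 1322 higher and 1165 to 1300 lower for LPS in WT. In Adap-/- PMs they called 1158 to 1225 and 1012 to 1079. Between the genotypes they called 124 to 224 and 230 to 334 after LPS, and 160 to 424 and 148 to 458 in mock. For the difference they called 4 to 40 and 24 to 87. Over all peaks the ratio gave 0 to 6 and 0 to 69 for LPS in WT, and 0 and 0 to 2 in Adap-/- PMs. The difference gave 5 members without WT mock replicate 1 and 1 without any of 5 other libraries, where *Slc2a6* kept its call. The causes were not tested.

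Replicate numbers across groups did not mark pairs in input (r of −0.078 to 0.164). With the replicate block, 58 members were called for LPS in WT, 47 in Adap-/- PMs, 8 between the genotypes after LPS, 20 in mock and 4 for the difference, and 0 member peaks in each ratio comparison with IP and input paired. Of 4742 genes it called 1425 higher and 1367 lower for LPS in WT and 1354 and 1239 in Adap-/- PMs. It called 270 and 433 between the genotypes after LPS, 394 and 390 in mock and 15 and 64 for the difference. Of 7058 peaks it called 0 and 7 for LPS in WT, 0 and 6 in Adap-/- PMs and none between the genotypes. The block ended the calls between the genotypes after LPS of *Slc9a4* (adjusted p = 0.0581) and *Slc26a10* (0.0506). For the named members and peaks, 904 values under alternatives were computed for 83 results. Of these 843 kept direction and side of the threshold, 51 lost the call, 9 gained it and 1 changed direction, *Slc16a3* after LPS in WT PMs, at −0.12 with all libraries and between −0.37 and 0.12 on leaving out single replicates, 0.12 being the value without WT LPS replicate 1. Ratios of LPS-raised members in mock and of LPS-lowered members after LPS rest on few input reads.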
